A study of Danio rerio with 4 samples.

Results

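Among 15621 genes measured in zebrafish heart ventricles, 77 differed between dusp6 mutant and wild-type (WT) fish in the same direction both in regenerating and in uninjured hearts. Of these, 33 were higher and 44 were lower in the mutant libraries. They were chosen on the measured values: the difference in log2(CPM + 1), dusp6 minus WT, had the same sign and a size of at least 1 at 20 days post amputation (dpa) and in uninjured hearts. CPM is a count scaled by library size, here with TMM, a factor that sets the bulk of genes equal between libraries. Genes needed at least 50 counts in at least 1 library. Because these differences made the selection, they are given as a description and not as a test.

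RNA of whole ventricles was sequenced in 4 libraries, with 1 library in each group. The groups were dusp6 at 20 dpa, dusp6 uninjured, WT at 20 dpa and WT uninjured. The dusp6 fish were homozygous for the pt30a allele, the WT fish were of the AB* strain, and all were adults of 6 months to 1 year. In the 20 dpa groups part of the ventricle had been resected and the heart left to regrow for 20 days. The labels give no number of ventricles per library. Total counts lay between 55197408 and 63222206 per library. No group has a replicate, so the spread between hearts of a group is unknown and the intervals given for folds are 95% intervals that cover counting error only. The mutant and AB* fish may also differ in genetic background, which in this design cannot be told apart from an effect of the allele. In whole ventricles, fewer cells of a type and less RNA per cell cannot be told apart either.

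Dusp6 is a dual-specificity phosphatase that removes the activating phosphates from the kinase ERK, and so limits signalling downstream of FGF and other receptor tyrosine kinases. Its own transcription is induced by that pathway, which makes it a feedback inhibitor. Zebrafish regrow resected ventricle from existing cardiomyocytes, with endothelium, epicardium and immune cells taking part. The zebrafish genome holds many duplicated genes, named with the endings a and b or, in these tables, by a number such as "5 of 6".

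The dusp6 transcript itself (ENSDARG00000070914) was not among the 77. It was at 121 CPM at 20 dpa and 183 CPM uninjured in the mutant, against 105 CPM at 20 dpa and 85.0 CPM uninjured in WT. The differences were 0.20 at 20 dpa and 1.09 uninjured, so the transcript was not lower in either mutant library. Since nothing in the labels describes pt30a as a null at the RNA level, these values do not check the genotype labels. None of the 36 genes above the floor on a list of feedback regulators and targets of FGF and MAPK signalling was a member. Members are 0.211% (higher) and 0.282% (lower) of all genes tested, so 0 among 36 is near those shares. The median log2 difference of the 36 genes was 0.01 at 20 dpa and 0.09 uninjured, against 0.00 and 0.01 over all genes tested.

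The 77 members are few beside all differences between the libraries. At 20 dpa, 220 genes (1.41%) were past the threshold of 1 in the higher direction and 285 (1.82%) in the lower direction. In uninjured hearts these counts were 277 (1.77%) higher and 231 (1.48%) lower. The members higher in both states are 0.211% of the genes tested and those lower in both are 0.282%. In the plot of the difference in one state against the other, both groups lie in opposite corners, as the rule requires.

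**Figure D1:**
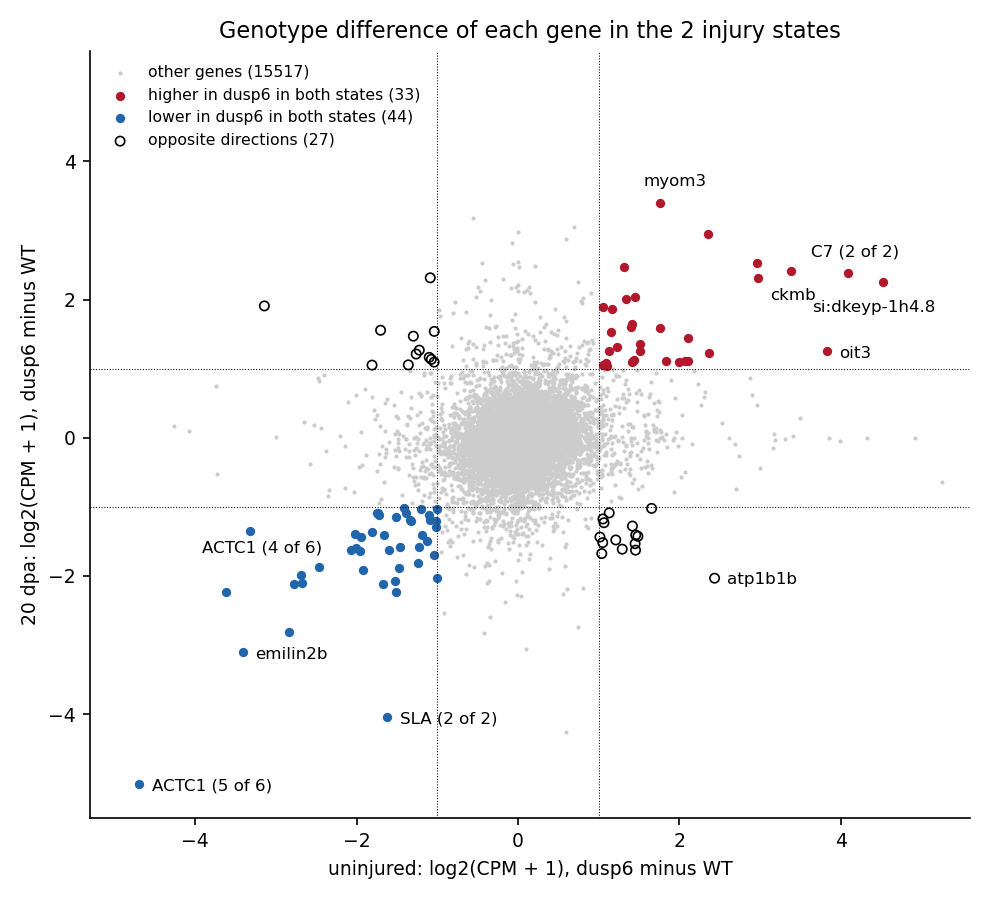
Log2(CPM + 1) difference, dusp6 minus WT, in uninjured hearts (horizontal) and at 20 dpa (vertical), 1 point for each of 15621 genes. Red points are the 33 members higher and blue points the 44 members lower in dusp6 in both states, open circles are 27 genes past 1 in opposite directions, and dotted lines mark the threshold. ACTC1 (5 of 6) lies farthest out, at -4.69 uninjured and -5.01 at 20 dpa.

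Members were mostly low in level. The smaller of a member's 2 differences had a median of 1.32 and ranged from 1.00 to 4.69. It was under 1.5 in 52 members and at least 2 in 12. The mean CPM over the 4 libraries had a median of 4.26, against 8.64 over all genes tested, and 57 members (74.0%) were under 10 CPM, against 53.6% of all genes. Only 6 members were over 100 CPM. In 42 members the differences of the 2 states lay within 0.5 of each other.

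Of the 77, 39 are named by a fixed rule of size, level and list membership, and the others named here were chosen after their values were seen. The 17 higher members outside the rule had smaller differences of 1.04 to 2.25 and mean levels of 1.55 to 131 CPM. The 21 lower members outside it had smaller differences of 1.02 to 1.98 and mean levels of 0.734 to 221 CPM.

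**Figure D2:**
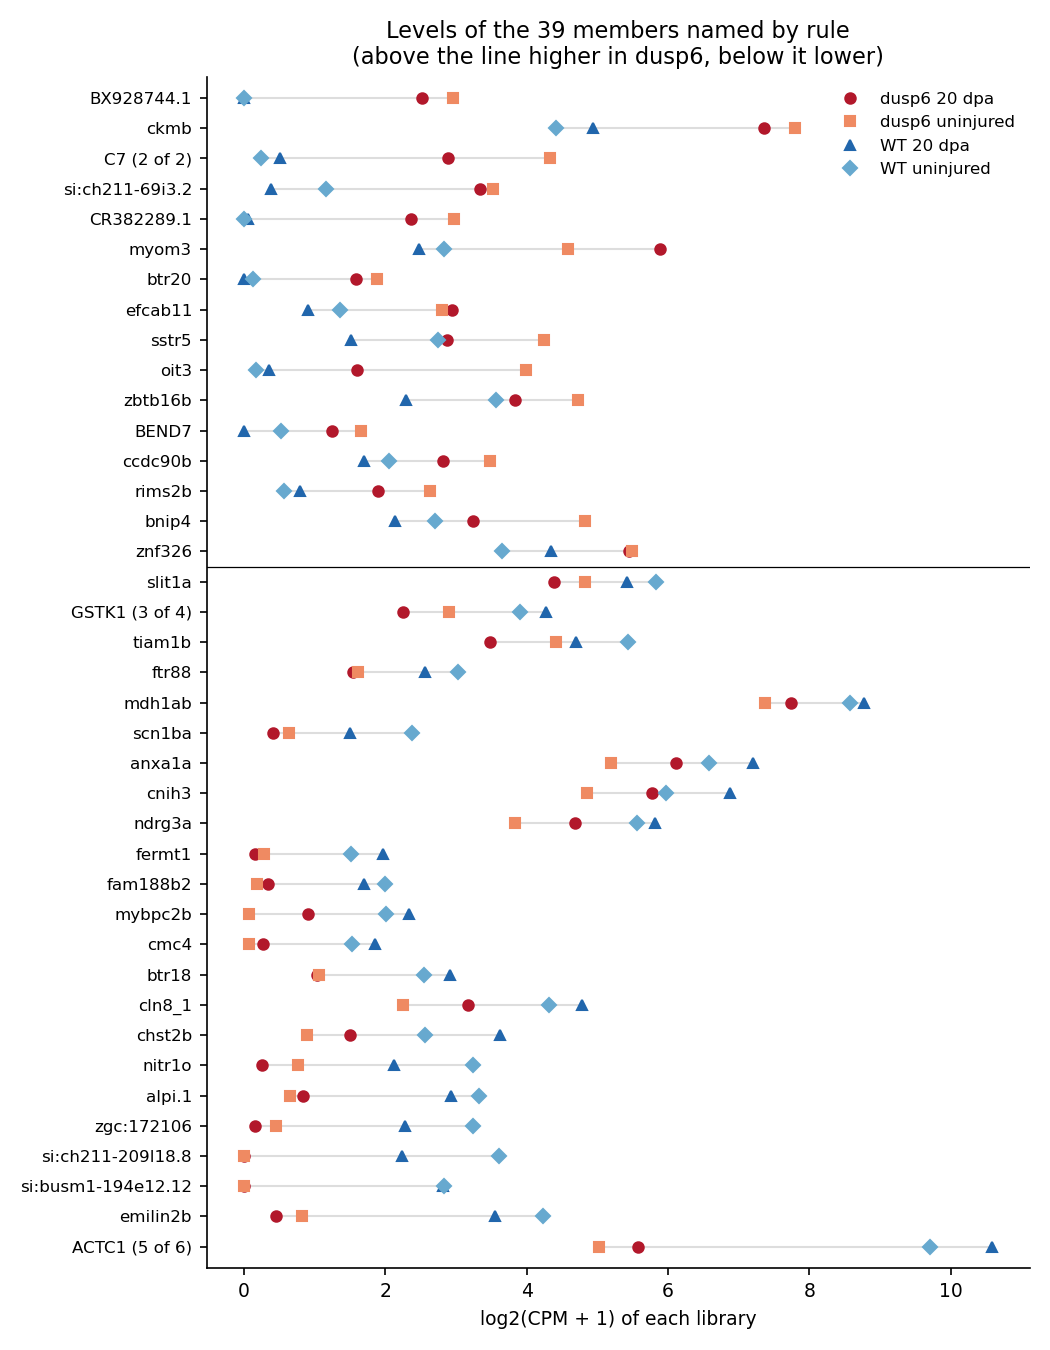
Log2(CPM + 1) in each of the 4 libraries (points) for the 39 members named by rule, with a grey line over the range. Above the black line are the 16 that were higher in dusp6 and below it the 23 that were lower. In each row both dusp6 points lie on the same side of the WT point of the same state, as the rule requires.

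Genes of the contractile apparatus were found on both sides. The lower member with the largest difference was ACTC1 (5 of 6) (ENSDARG00000076126, acte1 in RefSeq). It is named for an alpha actin of the thin filament, and is grouped here with the alpha actins by that name only. It had 2448 counts in dusp6 20 dpa and 1926 in dusp6 uninjured, against 84877 in WT 20 dpa and 56120 in WT uninjured. Its levels of 46.8 CPM (dusp6 20 dpa) and 31.4 CPM (dusp6 uninjured) stood against 1541 CPM (WT 20 dpa) and 838 CPM (WT uninjured). The mutant library was far below the WT library of the same state, by 32.9-fold at 20 dpa (interval 31.6 to 34.3) and 26.7-fold uninjured (25.5 to 27.9). A second gene named for that actin was ACTC1 (4 of 6). It was at 177 CPM (dusp6 20 dpa) and 33.5 CPM (dusp6 uninjured), against 537 CPM (WT 20 dpa) and 138 CPM (WT uninjured). It was 3.04-fold lower at 20 dpa (2.97 to 3.11) and 4.11-fold lower uninjured (3.92 to 4.31). For this gene the dusp6 library at 20 dpa was above the uninjured WT library, so the genotypes separate only within a state.

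The other 4 genes grouped here by name as alpha actins were not members. Compared per gene length, actc1a, the main actin of these ventricles, had 12354 and 11051 RPKM in dusp6 20 dpa and dusp6 uninjured, against 12509 and 10925 RPKM in WT 20 dpa and WT uninjured, with log2 differences of 0.09 and 0.08. RPKM is the read count scaled by gene model length and by library size, as the authors deposited it. ACTC1 (5 of 6) had 27.6 and 19.9 RPKM in the same mutant libraries, against 975 and 554 RPKM in the WT ones. Both member actins together made up 0.852% and 0.326% of the alpha actin RPKM in dusp6 20 dpa and dusp6 uninjured, against 7.99% and 4.97% in WT 20 dpa and WT uninjured. The summed CPM of all 6 genes differed by -0.07 at 20 dpa and -0.04 uninjured on the log2 scale. Alpha actin copies are nearly identical in sequence, so the division of reads among them is uncertain.

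Muscle creatine kinase B, ckmb (ENSDARG00000040565), buffers ATP in muscle. Among higher members with a proper symbol, ckmb ranked first by the smaller of its 2 differences (2.42). In a single state oit3 (3.83 uninjured) and myom3 (3.40 at 20 dpa) differed more. The ckmb level was 163 CPM (dusp6 20 dpa) and 221 CPM (dusp6 uninjured), against 29.8 CPM (WT 20 dpa) and 20.3 CPM (WT uninjured). The mutant library was above the WT library of the same state, by 5.48-fold at 20 dpa (5.20 to 5.79) and 10.9-fold uninjured (10.3 to 11.5). Its paralog ckma, at 2188 and 2591 RPKM in the mutant libraries (20 dpa, uninjured) and 2163 and 2671 RPKM in the WT ones, differed by 0.12 and 0.02 on the log2(CPM + 1) scale. Per length, ckmb stood at 77.2 and 112 RPKM in dusp6 and 15.1 and 10.8 RPKM in WT at 20 dpa and uninjured, well under ckma in every library.

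Myomesin 3 (myom3), a protein of the sarcomeric M-band, was at 58.1 CPM in dusp6 20 dpa and 23.1 CPM in dusp6 uninjured, against 4.59 CPM in WT 20 dpa and 6.11 CPM in WT uninjured. The other myomesins, myom1a and myom1b, differed by 0.22 and 0.32 at 20 dpa and by -0.22 and 0.17 uninjured. The myosin-binding protein gene mybpc2b, of the fast skeletal muscle type, had 46 and 3 counts in dusp6 20 dpa and dusp6 uninjured, against 224 and 203 counts in WT 20 dpa and WT uninjured. The cardiac form mybpc3 differed by -0.05 and -0.10. The 5 skeletal muscle markers summed to 14.6 and 0.571 CPM in dusp6 20 dpa and dusp6 uninjured, against 35.9 and 1.19 CPM in WT 20 dpa and WT uninjured. Of these, 3 of 5 were lower in dusp6 in both states, and those at 0 numbered 1 in dusp6 uninjured, 1 in WT 20 dpa, 2 in WT uninjured and 0 in dusp6 20 dpa, and their part in the result for mybpc2b was not tested. From a list of 32 skeletal muscle genes, 22 passed the floor, with medians of -0.93 at 20 dpa and -0.03 uninjured. Only ckmb among them was a member, beside shares of 0.211% (higher) and 0.282% (lower) over all genes tested. No gene of a cardiomyocyte sarcomere list, of which 18 passed the floor, was a member, which is near the share over all genes tested.

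**Figure D3:**
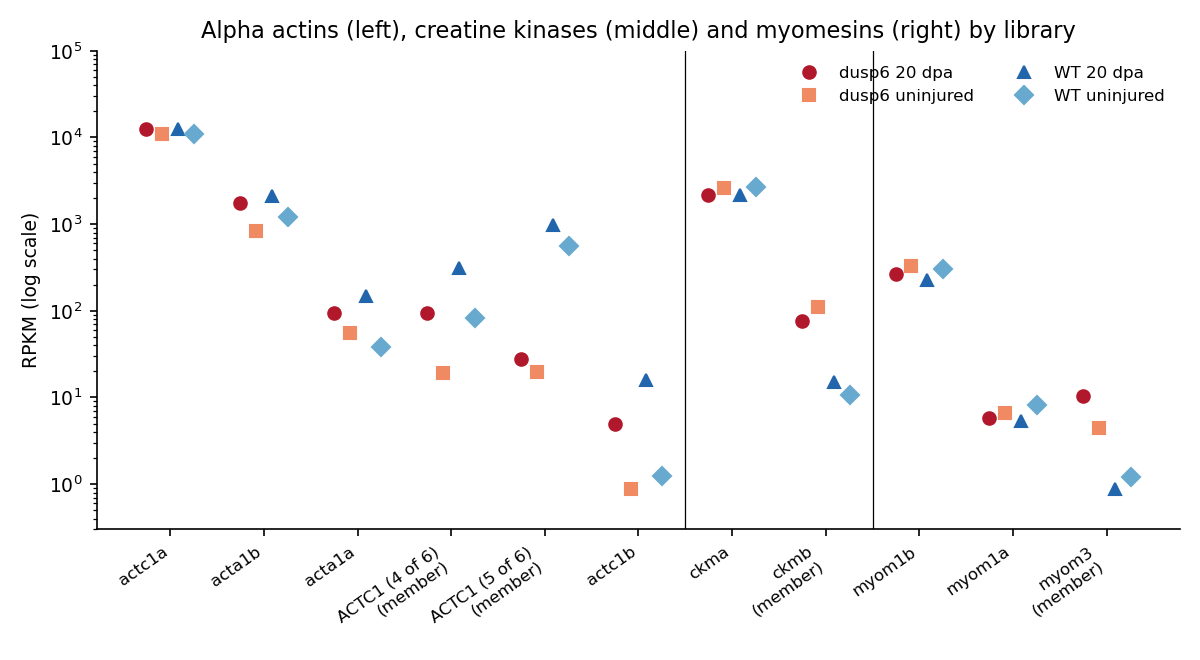
RPKM on a log scale in each of the 4 libraries for 6 alpha actins (grouped by name), 2 creatine kinases and 3 myomesins. Red and orange mark dusp6 and blue marks WT. The most abundant copy of each family (actc1a, ckma, myom1b) stands at about the same height in all 4 libraries, while ACTC1 (5 of 6), ckmb and myom3 show separate dusp6 and WT levels.

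Several members act in energy metabolism or in mitochondria. The cytosolic malate dehydrogenase gene mdh1ab, which serves the malate-aspartate shuttle, was at 212 and 164 CPM in dusp6 20 dpa and dusp6 uninjured, against 437 and 380 CPM in WT 20 dpa and WT uninjured. Its interval was narrow, at 2.06-fold lower (2.01 to 2.1) at 20 dpa and 2.31-fold lower (2.26 to 2.37) uninjured. The paralog mdh1aa differed in opposite directions, by -0.76 at 20 dpa and 0.43 uninjured. The BNIP3-related gene bnip4 was at 8.48 and 27.3 CPM in the mutant libraries (20 dpa, uninjured) and 3.39 and 5.54 CPM in the WT ones. The gene ccdc90b, for a mitochondrial coiled-coil protein, was at 6.07 and 10.2 CPM in dusp6 and 2.25 and 3.14 CPM in WT in the same order. Conversely cmc4, for a small protein of the mitochondrial intermembrane space, had 11 and 3 counts in dusp6 and 145 and 126 counts in WT at 20 dpa and uninjured. GSTK1 (3 of 4), a kappa-class glutathione transferase, was at 3.75 and 6.46 CPM in dusp6 and 18.3 and 14.0 CPM in WT. None of 26 fatty acid oxidation genes or 26 glycolysis and glucose transport genes above the floor was a member. With members at 0.211% (higher) and 0.282% (lower) of all genes tested, 0 on lists of this length is near those shares.

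The members named in this paragraph and the next, grouped here as immune genes, were lower, as were 44 of all 77 members. Some of them lie outside the fixed rule and were chosen after their values were seen. Their shared direction is therefore a description and was not tested. The complement gene c7b, a higher member, and the TRIM-type genes, which stood on either side, are described in later paragraphs. Major histocompatibility complex (MHC) class II molecules present peptides on antigen-presenting cells. The genes mhc2dgb and mhc2dga, which the tables list under older clone-based names and which were matched by name to RefSeq (assembly GRCz12tu), are direct neighbours in RefSeq gene order. Both had 0 counts in both mutant libraries. In WT 20 dpa and WT uninjured mhc2dgb had 332 and 410 counts, and mhc2dga had 153 and 186. Against a floor of 3 counts per library, mhc2dgb was at least 105-fold lower at 20 dpa and at least 125-fold lower uninjured, and mhc2dga at least 48.4-fold and 56.8-fold lower. Of the 4 other genes set beside them, which include the invariant chain genes cd74a and cd74b, 3 passed the floor. None of the 3 was a member, and only mhc2dab among them encodes a chain of the class II molecule itself. The class II gene mhc2dab was at 36.1 and 28.0 CPM in dusp6 20 dpa and dusp6 uninjured, against 28.2 and 17.6 CPM in WT 20 dpa and WT uninjured. The invariant chain gene cd74a was at 129 and 184 CPM in dusp6 and 161 and 144 CPM in WT at 20 dpa and uninjured.

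Among receptors of lymphoid cells, nitr1o, of the immunoglobulin-domain NITR family of bony fish, had 10 and 43 counts in dusp6 20 dpa and dusp6 uninjured, against 185 and 564 counts in WT 20 dpa and WT uninjured. It was 17.6-fold lower at 20 dpa (9.33 to 37.2) and 12-fold lower uninjured (8.80 to 16.8). It was the only one of 22 nitr genes to pass the floor. The interleukin receptor subunit gene il2rb was at 1.09 and 0.995 CPM in dusp6 and 4.12 and 3.05 CPM in WT at 20 dpa and uninjured. The related gene il2rga differed by -0.92 at 20 dpa and 0.09 uninjured. SLA (2 of 2), named for an adaptor that dampens antigen receptor signalling in mammals, had 13 and 38 counts in dusp6 and 1081 and 266 counts in WT at 20 dpa and uninjured. The related gene sla1 differed by -0.73 at 20 dpa and 0.04 uninjured. The 4 fixed lymphocyte markers in the tables were low and summed to 0.670 and 0.897 CPM in dusp6 20 dpa and dusp6 uninjured, against 1.31 and 1.37 CPM in WT 20 dpa and WT uninjured. Of the 4, 2 were lower in dusp6 in both states. A longer list of lymphocyte genes, with 19 in the tables, summed to 29.9 and 34.9 CPM in dusp6 20 dpa and dusp6 uninjured, against 57.4 and 33.2 CPM in WT 20 dpa and WT uninjured. The 6 above the floor had medians of -0.81 at 20 dpa, where 0 of 6 were above 0, and 0.04 uninjured, where 3 of 6 were. The part of lymphocyte genes in these differences was not tested.

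Genes of TRIM-type ubiquitin ligase families stood on either side. The bloodthirsty-related gene btr20 had 105 and 165 counts in dusp6 20 dpa and dusp6 uninjured, against 0 and 6 counts in WT 20 dpa and WT uninjured. In the other direction, btr18 had 55 and 67 counts in dusp6 and 362 and 323 counts in WT at 20 dpa and uninjured. Of 22 btr genes, 12 passed the floor and these 2 were members, beside shares of 0.211% (higher) and 0.282% (lower) over all genes tested. The btr genes were not among the gene lists examined. The summed CPM of the family differed by 0.15 at 20 dpa and -0.24 uninjured on the log2 scale. The finTRIM gene ftr88 was at 1.91 and 2.07 CPM in dusp6 and 4.92 and 7.15 CPM in WT at 20 dpa and uninjured, as 1 member among 38 finTRIM genes above the floor. Their median differences were 0.04 and -0.08. Reads of such families may be shared between copies, so single genes among them are uncertain.

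C7 (2 of 2), called c7b in RefSeq and named for a component of the complement membrane attack complex, was among the largest higher members. It had 335 and 1172 counts in dusp6 20 dpa and dusp6 uninjured, against 23 and 12 counts in WT 20 dpa and WT uninjured. The fold was 15.4 at 20 dpa (10.1 to 24.6) and 107 uninjured (60.8 to 207). The gene oit3, known as a liver-enriched secreted protein gene in mammals, had 106 and 915 counts in dusp6 and 15 and 8 counts in WT at 20 dpa and uninjured. Both were highest in the uninjured mutant library. Of fixed liver markers, 6 summed to 20.8 and 70.5 CPM in dusp6 20 dpa and dusp6 uninjured, against 36.6 and 19.1 CPM in WT 20 dpa and WT uninjured. Of the 6, 2 were lower and 1 was higher in dusp6 in both states, while 2 were at 0 in dusp6 uninjured and 1 in WT 20 dpa. A longer list of liver and plasma genes, with 32 in the tables, summed to 292 and 192 CPM in dusp6 20 dpa and dusp6 uninjured, against 336 and 127 CPM in WT 20 dpa and WT uninjured. Its 16 genes above the floor had medians of -0.65 at 20 dpa and -0.06 uninjured. The part of these genes in the values of oit3 and C7 (2 of 2) was not tested. The intestinal-type alkaline phosphatase gene alpi.1 was lower, at 0.785 and 0.571 CPM in dusp6 and 6.63 and 9.07 CPM in WT. Pancreas and gut markers, of which 3 were in the tables, summed to 75.0 and 96.3 CPM in dusp6 and 120 and 146 CPM in WT, and their part in the alpi.1 difference was not tested.

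Members of the extracellular matrix and of adhesion were led by emilin2b (ENSDARG00000102178), for a glycoprotein of elastic fibres. It had 19 and 47 counts in dusp6 20 dpa and dusp6 uninjured, against 592 and 1191 counts in WT 20 dpa and WT uninjured. Expression was 29.6-fold lower at 20 dpa (18.8 to 49.4) and 23.2-fold lower uninjured (17.3 to 31.8). The paralog emilin2a, at 55.6 and 23.1 CPM in dusp6 and 57.9 and 44.0 CPM in WT, differed by -0.06 at 20 dpa and -0.90 uninjured. The sulfotransferase gene chst2b, for an enzyme that adds sulfate to glycan chains, was at 1.84 and 0.848 CPM in dusp6 and 11.3 and 4.91 CPM in WT. Its paralog chst2a differed by 0.06 and 0.34. The kindlin gene fermt1, for an activator of integrins, had 6 and 13 counts in dusp6 and 160 and 124 counts in WT. COL23A1 (2 of 2), for a transmembrane collagen, was higher, at 6.93 and 9.10 CPM in dusp6 and 2.87 and 3.69 CPM in WT. The atypical cadherin gene fat3a had the same difference of 1.05 in both states, at 6.70 and 7.01 CPM in dusp6 and 2.70 and 2.87 CPM in WT. None of 31 extracellular matrix genes on a list was a member, which is near the share of members over all genes tested. The medians of these 31 genes were -0.54 at 20 dpa and 0.18 uninjured.

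Signalling members included slit1a, a guidance ligand of Robo receptors, with 19.9 and 27.4 CPM in dusp6 20 dpa and dusp6 uninjured, against 41.9 and 55.9 CPM in WT 20 dpa and WT uninjured. It lay nearest to the threshold, with differences of -1.03 and -1.004. The Rac exchange factor gene tiam1b was at 10.2 and 20.4 CPM in dusp6 and 24.9 and 42.4 CPM in WT. Its paralog tiam1a was below the threshold in both states, at -0.93 and -0.59. The annexin gene anxa1a, for a calcium-dependent phospholipid-binding protein, was at 67.9 and 35.5 CPM in dusp6 and 146 and 94.6 CPM in WT. The somatostatin receptor gene sstr5 was higher, at 6.33 and 18.0 CPM in dusp6 and 1.85 and 5.69 CPM in WT. DUPD1 (1 of 11), named for another dual-specificity phosphatase, was at 1.88 and 6.33 CPM in dusp6 and 0.345 and 0.836 CPM in WT. It was the only one of the 10 DUPD1 genes in the tables to pass the floor.

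Channel and vesicle genes known from neurons were also present. The sodium channel subunit gene scn1ba had 17 and 34 counts in dusp6 20 dpa and dusp6 uninjured, against 100 and 282 counts in WT 20 dpa and WT uninjured. The cornichon gene cnih3, for an auxiliary subunit of glutamate receptors, was one of the more abundant members, at 53.5 and 28.0 CPM in dusp6 and 117 and 61.5 CPM in WT. The vesicle release gene rims2b was higher, at 2.74 and 5.22 CPM in dusp6 and 0.726 and 0.478 CPM in WT. Of 45 voltage-gated and potassium channel genes above the floor, scn1ba was the only member, and the list medians were -0.01 and 0.05. Over all genes tested the shares of members were 0.211% (higher) and 0.282% (lower).

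Among genes that bind or regulate DNA and RNA, the zinc finger gene znf326 was at 42.8 and 43.8 CPM in dusp6 20 dpa and dusp6 uninjured, against 19.4 and 11.6 CPM in WT 20 dpa and WT uninjured. The repressor gene zbtb16b, also on a list of glucocorticoid-responsive genes, was at 13.2 and 25.3 CPM in dusp6 and 3.92 and 10.8 CPM in WT. Its paralog zbtb16a differed by 0.54 at 20 dpa and -0.51 uninjured. BEND7 had 72 and 131 counts in dusp6 and 0 and 29 counts in WT, and RAI1 was at 7.63 and 8.92 CPM in dusp6 and 3.09 and 3.66 CPM in WT. Of 185 zinc finger genes above the floor, 2 were members, beside shares of 0.211% (higher) and 0.282% (lower) over all genes tested. The list medians were 0.04 and -0.0024. Among the remaining members named by rule, efcab11, for an EF-hand protein, was at 6.72 and 5.97 CPM in dusp6 and 0.871 and 1.55 CPM in WT. Lower ones were ndrg3a at 24.8 and 13.2 CPM in dusp6 and 55.3 and 46.1 CPM in WT, and cln8_1, for a protein of the endoplasmic reticulum membrane, at 7.96 and 3.75 CPM in dusp6 and 26.6 and 18.9 CPM in WT. The gene fam188b2 had 14 and 8 counts in dusp6 and 124 and 199 counts in WT.

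Of the 43 lists examined, 6 held a member. On any list were 6 members (7.79%), beside 1182 of all genes tested (7.57%). Lists match by symbol, so members with numbered or clone-based names count as on no list. Examples are GSTK1 (3 of 4), COL23A1 (2 of 2), both ACTC1 members, C7 (2 of 2), SLA (2 of 2) and both class II genes. Of the members 43 (55.8%) had no proper symbol, against 18.5% of all genes tested. The 2 shares are therefore not on an equal footing. The lists of endothelium, epicardium, macrophages, mural cells and fibroblasts, cell cycle and interferon response held 0 members. For lists of this length that is near the shares of members over all genes tested, 0.211% (higher) and 0.282% (lower). The macrophage list, with 21 genes above the floor, had a median of -0.66 at 20 dpa and 0.07 uninjured. The 5 fixed macrophage markers summed to 70.5 and 57.1 CPM in dusp6 20 dpa and dusp6 uninjured, against 142 and 38.2 CPM in WT 20 dpa and WT uninjured. Cardiomyocyte markers, of which 8 were in the tables, were abundant in every library. They summed to 61691 CPM (dusp6 20 dpa) and 55445 CPM (dusp6 uninjured), against 57540 CPM (WT 20 dpa) and 51324 CPM (WT uninjured). Of the 8, 4 were higher and 1 was lower in dusp6 in both states, which was not tested.

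Some members were read in 1 genotype and hardly at all in the other. At least 50 counts in both mutant libraries and at most 3 in both WT libraries was a pattern of 2 of 15621 genes (0.0128%), both members. BX928744.1 had 248 and 416 counts in dusp6 20 dpa and dusp6 uninjured, against 0 and 0 counts in WT, and CR382289.1 had 217 and 419 counts in dusp6, against 2 and 0 counts in WT 20 dpa and WT uninjured. BX928744.1 was thus at least 87.1-fold higher at 20 dpa and at least 151-fold higher uninjured. The reverse pattern was found in 8 genes (0.0512%), of which 6 were members. Such counts nearly meet the rule for members by themselves, and these genes pass the floor only through the genotype in which they are high. That they are members therefore adds little to the pattern. Besides the 2 class II genes, si:ch211-209l18.8 and zgc:171500 had 0 counts in both mutant libraries. In WT 20 dpa and WT uninjured si:ch211-209l18.8 had 205 and 753 counts and zgc:171500 had 85 and 602. BX323854.3 had 0 and 2 counts in dusp6 and 117 and 201 counts in WT, and si:ch211-69l10.4 had 0 and 2 counts in dusp6 and 71 and 108 counts in WT. Since 3 counts correspond to 0.0448 to 0.0574 CPM, a count of 0 leaves room for levels below that.

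Other members without a gene symbol ranged more widely. si:ch211-69i3.2 was at 9.13 and 10.5 CPM in dusp6 20 dpa and dusp6 uninjured, against 0.309 and 1.24 CPM in WT 20 dpa and WT uninjured. zgc:172106 had 6 and 23 counts in dusp6, against 212 and 565 counts in WT. Names beginning with si: carry the genomic clone on which a gene was annotated, and 2 clones held 2 members each. On the clone of si:dkeyp-1h4.8 and si:dkeyp-1h4.9 both were higher. The gene si:dkeyp-1h4.9 was at 192 and 205 CPM in dusp6 and 46.9 and 80.0 CPM in WT, the highest mean level of the higher members, while si:dkeyp-1h4.8 had 196 and 1790 counts in dusp6 and 0 and 21 counts in WT. A further gene of that clone, si:dkeyp-1h4.6, differed by -0.31 at 20 dpa and 1.51 uninjured. On the other clone, si:ch211-67o16.3 and si:ch211-67o16.7 were higher and were the only ones of 6 genes to pass the floor.

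Names of this kind were common among the members. Of the 77, 43 (55.8%) had no proper symbol, against 18.5% of all genes tested, and 10 (13.0%) had a numbered name such as "5 of 6", against 3.58%. Clone-based names made up 37.7% of members and 12% of all genes. The median gene model was 2078 bases long in members and 2759 bases over all genes tested. By their name in the tables or, except for names beginning with si:, by the name listed for their identifier, 47 members (61.0%) and 13662 genes tested (87.5%) could be placed in the RefSeq gene order. None of the placed members lay within 50 protein-coding genes of dusp6, where 63 genes tested lie. One placed member, ACTC1 (5 of 6), lay within 100, where 128 genes tested lie, with 80 protein-coding genes between it and dusp6. It was also the only placed member on the chromosome of dusp6 (2.13% of placed members, against 3.07% of placed genes). Apart from both class II genes, none of the 47 placed members were direct neighbours, and btr18 and MAP7D1 (1 of 6) had 5 genes between them. Members without a place, such as si:dkeyp-1h4.8 and si:dkeyp-1h4.9 of the same clone, could not be examined for this.

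Genes past the threshold in one state were also described by the other state, with which it shares no library. Those past it in the same direction in both states are the members themselves. The same-direction shares therefore restate the rule's counts over different totals, and they are a description and not a test. Of the 220 genes higher in dusp6 at 20 dpa, 33 (15%) were past the threshold in the same direction in uninjured hearts and 12 (5.45%) in the opposite one. Of the 285 lower at 20 dpa, 44 (15.4%) were also lower uninjured and 15 (5.26%) were higher. Choosing in uninjured hearts, 33 of 277 higher genes (11.9%) and 44 of 231 lower genes (19.0%) were past the threshold in the same direction at 20 dpa, and 15 (5.42%) and 12 (5.19%) were past it in the opposite one. Over all genes, not matched for level, these shares are those of the background, between 1.41% and 1.82%. Most chosen genes fell short of the threshold in the other state, where their median difference was 0.19 for those higher at 20 dpa, -0.19 for those lower at 20 dpa, 0.07 for those higher uninjured and -0.18 for those lower uninjured. Across the 15621 genes, which are not independent replicates, the differences of the 2 states had a Pearson correlation of 0.19 and a Spearman correlation of 0.18.

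**Figure D4:**
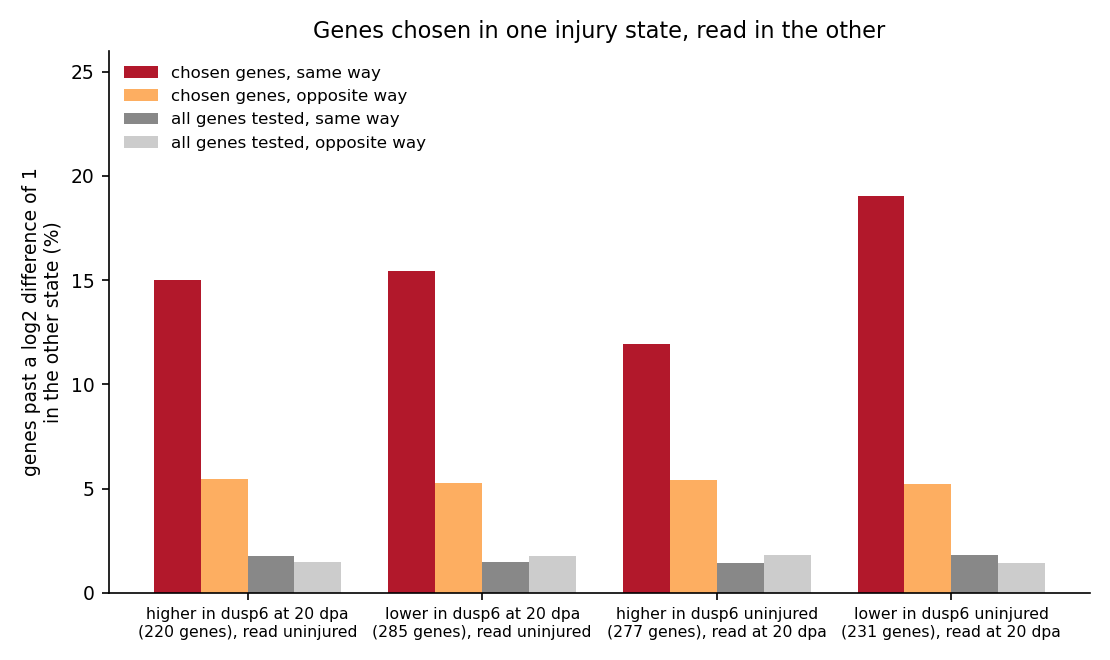
Share of genes (%) past a log2 difference of 1 in the state that did not choose them, for genes chosen as higher or lower in dusp6 at 20 dpa or uninjured. Red bars (same direction, 11.9% to 19.0%), which count the members themselves, stand above orange bars (opposite direction, 5.19% to 5.45%). Grey bars give the shares over all genes tested.

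Just inside the threshold lay slit1a, GSTK1 (3 of 4) and tiam1b, with smaller differences of 1.00, 1.01 and 1.02. Just outside lay frzb, a secreted Wnt antagonist gene (-0.996 at 20 dpa and -1.06 uninjured), tdp1, a DNA repair gene (0.99 and 1.18), and si:ch211-114l13.11 (0.98 and 1.47). The choice of pseudocount set much of the number of members: 0.25 CPM gave 85 higher and 102 lower, and 5 CPM gave 6 higher and 11 lower. An additive edgeR quasi-likelihood fit with injury as block and 1 residual degree of freedom called 1 of 15621 genes (0.0064%) for genotype, ACTC1 (5 of 6), with a log2 fold change of -4.89 and an adjusted p of 0.029. At an unadjusted p under 0.05 it listed 1380 genes, and DESeq2 called 149 (0.954%), of which 67 were members. The adjusted p of ACTC1 (5 of 6) was 0.098 with a floor of 250 counts and 0.68 without the block, against 1.4e-164 in DESeq2. The same libraries and the same contrast chose the members, so none of these calls is independent of the choice.

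The members were also read for the difference between 20 dpa and uninjured hearts. The rule did not use this difference, but the spread of the injury test comes from the same pair of genotype differences that chose the members, so its p-values for members are not free of the choice and are given as a description. The injury term of the edgeR fit called 128 of 15621 genes (0.819%), and 2 of the 77 members were among them, BX908782.1 and ACTC1 (4 of 6), each with an adjusted p of 0.048. At an unadjusted p under 0.05 it listed 32 members (41.6%), beside 4283 of all genes (27.4%), and DESeq2 called 14 members (18.2%), beside 1394 of all genes (8.92%). BX908782.1 was at 98.9 CPM in dusp6 20 dpa, against 3.62 CPM in dusp6 uninjured, and at 17.1 CPM in WT 20 dpa, against 0.851 CPM in WT uninjured. ACTC1 (4 of 6) was higher by 2.37 in dusp6 and 1.96 in WT, as log2(CPM + 1) at 20 dpa minus uninjured. With total-count scaling neither was called. The 20 dpa and the uninjured libraries carry names of different styles. A difference in handling between them, if any, cannot be told apart from injury in this design. Over all genes 202 (1.29%) were at least 1 higher at 20 dpa in both genotypes and 153 (0.979%) at least 1 lower. Among members these were the same 2 genes on the higher side and 1 on the lower side, sstr5, at -1.37 in dusp6 and -1.23 in WT.

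In 54 of the 77 members (70.13%) the 20 dpa and uninjured libraries differed by less than 1 in both genotypes, beside 13866 of all genes (88.8%). In 0 members did they differ by 1 or more in opposite directions, beside 15 of all genes (0.096%). The median difference of members between 20 dpa and uninjured was -0.18 in dusp6 and -0.12 in WT. The genotype differences of the 2 states lay within 0.5 of each other in 42 of the 77 members, and the others were less equal. Among these were myom3 (3.40 at 20 dpa and 1.76 uninjured) and C7 (2 of 2) (2.39 and 4.09). SLA (2 of 2) was lower by 78.9-fold at 20 dpa (45.9 to 149) and 6.41-fold uninjured (4.55 to 9.26), since it was higher at 20 dpa in WT (2.05) and not in dusp6 (-0.38). Conversely oit3 was higher by 7.45-fold at 20 dpa (4.32 to 13.8) and 125-fold uninjured (63.1 to 290), with -2.39 in dusp6 and 0.18 in WT between 20 dpa and uninjured. With 1 library a group these unequal sizes were not tested.

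**Figure D5:**
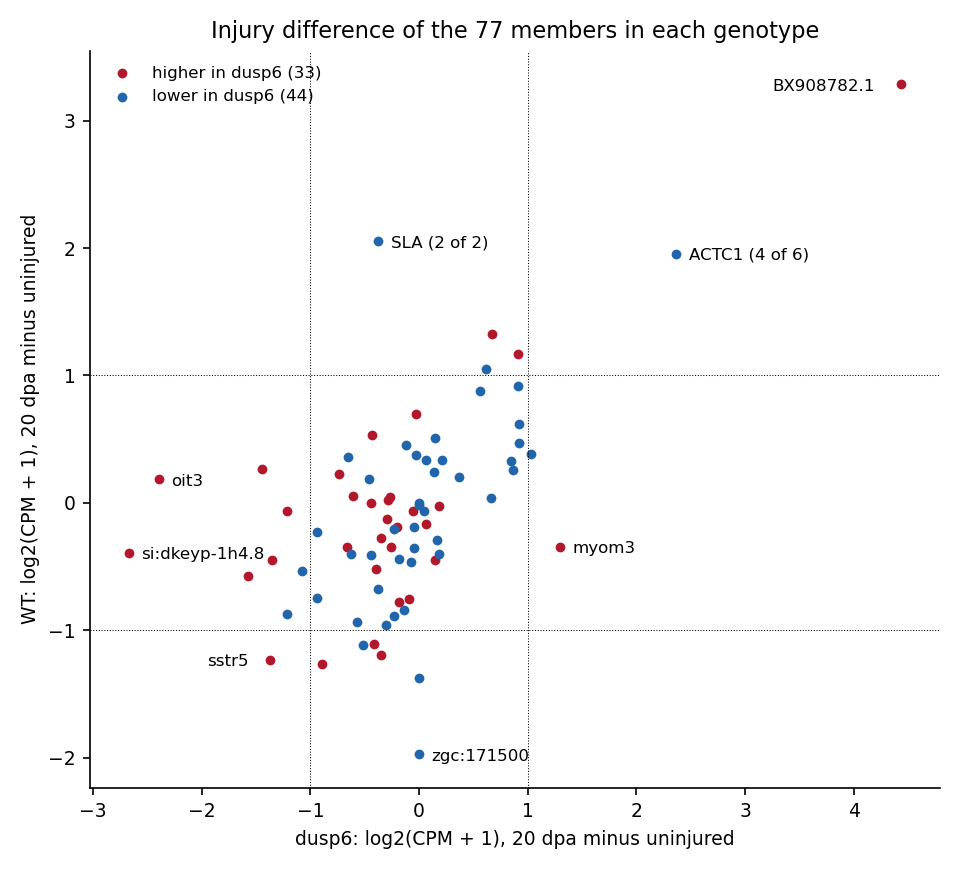
Log2(CPM + 1) at 20 dpa minus uninjured, in dusp6 (horizontal) and WT (vertical), for the 77 members, red for those higher and blue for those lower in dusp6. BX908782.1 and ACTC1 (4 of 6) stand at the upper right, and 54 members lie inside the dotted square of 1 around 0.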

How the data were processed

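The authors deposited 2 tables of 31388 genes, each with 1 of the 20 dpa libraries and both uninjured ones. The deposited expression values are gene counts, taken as raw because they are whole numbers, and the authors' RPKM stand beside them, per the file headers. The tables were joined on gene identifier, keeping 1 copy of the uninjured columns, which did not differ between them. No source used here names the aligner or genome build. Gene names beginning with si: do not match the names listed for their identifiers in the deposited tables, so these genes are given by name only.

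Counts were scaled by TMM (edgeR 4.0.16, R 4.3.3). A pseudocount of 1 CPM was added before taking log2 differences, so changes of low genes come out too small. Genes needed 50 counts in a library. The members, the gene lists and the rule for named genes were chosen with earlier results of these data known. Named genes were the 12 higher and 12 lower members with a proper symbol and the largest smaller difference, the 6 and 6 with the highest mean CPM, members on a list or within 25 genes of dusp6, the 3 genes on either side of the threshold, and the 4 and 4 largest without a proper symbol. Folds carry no pseudocount and have exact conditional 95% intervals, and a fold against 0 counts uses 3 counts per library. Without molecular identifiers reads may be copies of a molecule, and no interval or floor covers more than counting error. Genotype and injury were fitted together in edgeR's quasi-likelihood test with Benjamini-Hochberg adjustment, where the spread comes from how far the genotype difference parts between the states. Alternatives were DESeq2 1.42.0, other scalings, floors, pseudocounts and thresholds, a fit without the block, and left-out libraries. The rule and the fit were run on simulated counts, with large changes placed in well-read genes only and less spread than fitted here. That run does not cover low members or members near the threshold. The intervals were run on simulated counts with counting error only. RefSeq names and gene order (GRCz12tu) were matched by name, or by the name listed for an identifier except for si: names, and no coordinates are given. Tables and intervals were made in Python 3.11.15 (with pandas 2.3.3, numpy 2.4.6 and scipy 1.17.1), and figures in matplotlib 3.10.9.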

Additional observations from a re-analysis of the deposited data

Results flagged for a closer look

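In 27 of 15621 genes tested, the dusp6 minus WT difference was 1 or more in size in both states but opposite in direction. These genes, on the same log2(CPM + 1) scale, are therefore set apart from the 77 members, which differed in the same direction. The difference between the states was not tested, since each group has 1 library.

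Of these, 12 genes were higher in dusp6 at 20 dpa and lower in dusp6 uninjured. They included ppp1r3da, for a targeting subunit of a glycogen-associated phosphatase, with 25 and 8.38 CPM in dusp6 20 dpa and dusp6 uninjured, against 7.84 and 29.6 CPM in WT 20 dpa and WT uninjured. The proteoglycan gene bgnb was at 7.48 and 2.33 CPM in dusp6 and 2.52 and 6.78 CPM in WT.

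The other 15 genes were lower in dusp6 at 20 dpa and higher in dusp6 uninjured. The sodium pump subunit gene atp1b1b had differences of -2.03 at 20 dpa and 2.44 uninjured, with 18.6 and 87.4 CPM in dusp6 and 79.2 and 15.3 CPM in WT. The ventricular myosin gene vmhc was at 248 and 722 CPM in dusp6 and 672 and 356 CPM in WT. The class I MHC gene mhc1uba was at 95.8 and 209 CPM in dusp6 and 256 and 75.5 CPM in WT.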

How the results depend on the processing

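The main counts were 33 higher and 44 lower members. A pseudocount of 0.25 CPM gave 85 and 102, a pseudocount of 5 CPM gave 6 and 11, a threshold of 0.6 gave 141 and 140, and a threshold of 2 gave 6 and 6. Leaving out names of gene families and clones, an alternative chosen after seeing the data, left 13 and 20. Total-count scaling (30 and 47), median-of-ratios scaling (34 and 44) and a floor of 250 counts (30 and 35) stayed within 1.5 times. Without a floor and with a floor of 10 the counts were again 33 and 44, which the rule fixes in advance. A difference of 1 needs at least 1 CPM in the higher library, and 50 counts do not reach that level. For genotype edgeR called 1 gene, DESeq2 149, the fit with no injury block 0, median-of-ratios scaling 2, no floor 22, a floor of 250 counts 0 and total-count scaling 1. Members called for injury numbered 2, against 14 in DESeq2 and 0 with total-count scaling. The mean log2 difference of ACTC1 (5 of 6), -4.85, was -4.69 to -5.01 with either state's libraries left out. The share of genes higher uninjured that were also higher at 20 dpa (11.9%) was 16.5% with a floor of 250 counts and 7.41% with a pseudocount of 5 CPM. With that pseudocount the share of genes higher at 20 dpa that were also higher uninjured (15%) was 8.96%, and for lower genes (15.4%) it was 21.6%. Total-count scaling reversed none of the 39 named members, while a pseudocount or a single state could reverse none, given the rule. A pseudocount of 5 CPM moved 32 of them beyond their counting error. By construction a larger pseudocount makes every log2 difference smaller in size, and most so in low genes. The cause of the other shifts was not tested. Depth limits members near the floor: 50 counts equal 0.747 to 0.957 CPM, below the pseudocount of 1.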

Other observations

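Names beginning with si: do not pair with their identifiers in the deposited tables. Of 5219 names beginning with si: whose identifier is in the gene name table, 0 match the name listed for that identifier. Of 18730 gene symbols with such an identifier, 12502 match, ignoring case. Numbered names such as "5 of 6" also match in 0 of 924 cases and clone names in 0 of 238, so names alone cannot check these. For 375 si: genes with a RefSeq length for both names, the gene model length recovered from counts and RPKM had a Spearman correlation of 0.52 with the length of the named gene and -0.01 with that of the gene listed for the identifier. For 10521 genes whose names match, it was 0.56. For 350 numbered names the correlation with the length of the gene listed for the identifier was 0.48, and for 125 clone names it was 0.20, against -0.01 for 1159 si: names. These correlations are across genes. A lookup of si: genes by identifier would therefore attach their counts to other genes, while the join of both tables is not touched, because both carry the same pairs.

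Correlations of the genotype difference between the states changed little with level. Over genes with at least 250 counts in any library (11319 genes) the Pearson correlation was 0.22, and over those with at least 1000 counts (6129 genes) it was 0.22.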
